A study of Homo sapiens with 8 samples.

Results

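The mitochondrial genome of human cells is a small circular DNA that encodes core subunits of the respiratory chain and of ATP synthase, together with the ribosomal and transfer RNAs needed to translate them. Long polycistronic transcripts are made from both strands and cut at the transfer RNAs, after which most of the mRNAs receive a short poly(A) tail. Nuclear DNA carries old copies of mitochondrial sequence, and some of them appear as separate genes in annotations. The 10 transcripts described here were the rows RNR2, ND1, ND2, ND4, ND5, COX1, COX2, ATP6 and CYTB, chosen by their symbols among the 16782 genes of the deposited table, with the nuclear copy MTATP6P1. MTATP6P1 had no symbol in the table and was found by its Ensembl identifier ENSG00000248527.

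The cells were CAKI1, a human line established from a renal carcinoma, and had been kept without serum for 24 h before stimulation. In one group of 4 libraries the cells then received hLcn-2, the iron-loaded form of the iron carrier lipocalin-2, at 5 µg/mL for 24 h, and 4 libraries came from cells without this stimulus. Each group was numbered 1 to 4, and libraries with the same number are called pairs here. The renal marker PAX8, the epithelial keratins KRT8 and KRT18, the receptor MET and the mesenchymal marker VIM were present in all libraries, PAX8 at a mean of 226 normalized counts in controls and 223 after hLcn-2. The rows analysed here did not include the epithelial marker KRT19, the leukocyte marker PTPRC, the endothelial markers PECAM1 and CDH5 or the fibroblast markers DCN and LUM. The values are normalized counts on a CPM scale, and the libraries held between 1501563 and 13953090 reads. The kit read the 3′ ends of RNA primed at poly(A), and unique molecular identifiers were used to count each cDNA molecule once. It is not known whether the libraries of a group came from separate cultures, so p-values measure the spread between these libraries.

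All 9 mitochondrially encoded members lie on the plus strand of chromosome M in GRCh38. RNR2 (ENSG00000210082, positions 1671 to 3229) is the large ribosomal RNA of the mitochondrial ribosome. ND1 (ENSG00000198888, 3307 to 4262), ND2 (ENSG00000198763, 4470 to 5511), ND4 (ENSG00000198886, 10760 to 12137) and ND5 (ENSG00000198786, 12337 to 14148) encode membrane subunits of complex I, which passes electrons from NADH to ubiquinone. CYTB (ENSG00000198727, 14747 to 15887) encodes cytochrome b of complex III, and COX1 (ENSG00000198804, 5904 to 7445) and COX2 (ENSG00000198712, 7586 to 8269) encode catalytic subunits of cytochrome c oxidase. ATP6 (ENSG00000198899, 8527 to 9207) encodes the membrane subunit of ATP synthase through which protons flow, and shares its first 46 nt with the end of ATP8. MTATP6P1 lies on the plus strand of chromosome 1 from 633696 to 634376 and is annotated as an unprocessed pseudogene.

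ATP6 and MTATP6P1 were compared base by base in the reference, because reads of the gene and of its nuclear copy can be told apart only where the sequences differ. Both are 681 nt long and differ at 10 positions, an identity of 98.5%. Their last 160 nt, the part next to the 3′ end, are shown 5′ to 3′ with the differing bases in capitals. They lie at chrM:9048-9207 and chr1:634217-634376 of GRCh38.

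ATP6: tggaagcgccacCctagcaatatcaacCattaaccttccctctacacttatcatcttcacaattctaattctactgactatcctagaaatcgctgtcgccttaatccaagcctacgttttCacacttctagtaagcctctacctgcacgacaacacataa

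MTATP6P1: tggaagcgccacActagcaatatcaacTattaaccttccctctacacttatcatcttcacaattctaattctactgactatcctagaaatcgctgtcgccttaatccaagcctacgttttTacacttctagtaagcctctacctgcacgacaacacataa

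Counted from 1 at the first base of ATP6, the substitutions from the mitochondrial to the nuclear sequence in this stretch are C534A, C549T and C642T, and the last 39 nt are the same in both. A read was at most 75 nt long. Of the 607 stretches of that length in ATP6, 170 (28.0%) were identical in MTATP6P1 and 278 (45.8%) differed at 1 base only. In the printed end, 18 of 86 stretches were identical and 55 differed at 1 base. The values of these genes rest on few informative bases, and the reads themselves, which would show the bases of this cell line, were not analysed here. How reads that match both the mitochondrial genome and a nuclear copy were assigned is not given in the sources used here, so the counts of MTATP6P1 and its ratio to ATP6 may include reads of the other gene.

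Across the whole mitochondrial genome, stretches of 75 nt with an exact copy on another chromosome made up 36.6% of COX1, 34.4% of ND2, 17.1% of ND1, 10.5% of COX2, 3.37% of RNR2 and 0.173% of ND5. CYTB and ND4 had none. RNR2, with 35.1% A, had 4 runs of 6 or more A, more than any other member, where ND2, ND4 and ND5 had 2. Its longest run of A, 7 nt in capitals here with 20 nt on either side, lies 766 nt before the 3′ end, at chrM:2437-2483. The longest run of any member was in ND5 (8 nt, 1723 nt before its 3′ end), and ND2, ND4 and COX1 also had runs of 7 nt. Whether runs of A bear on the levels of the members was not tested.

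RNR2: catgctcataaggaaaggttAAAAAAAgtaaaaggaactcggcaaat

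RNR2 was the gene with the highest value in all 8 libraries. Together the 10 members took 5.54%, 5.74%, 9.63% and 6.54% of the column totals in controls 1 to 4, and 5.69%, 5.95%, 10.8% and 6.77% in hLcn-2 libraries 1 to 4. Both libraries numbered 3 stood above all others, and the groups overlapped. The mean share was 6.86% ± 1.90 (SD, n = 4) in controls and 7.31% ± 2.39 (SD, n = 4) with hLcn-2, a difference of 0.445 percentage points, smaller than the spread between replicates. It was higher in 4 of 4 pairs, by 0.146, 0.210, 1.20 and 0.226 percentage points, and pair 3 contributed most of the mean difference, which was 0.194 without it. Leaving out hLcn-2 library 3 turned the difference between the group means to -0.729, and leaving out control 3 raised it to 1.37. All 30 rows of the mitochondrial genome in the table, of which 15 were transfer RNAs, took between 7.37% and 13.8%. Their summed share was higher after hLcn-2 in 3 of 4 pairs and changed by -0.0545 percentage points in pair 1. The difference between its group means was 0.370 percentage points. In bulk RNA, a change in the number of cells that carry a transcript and a change in RNA per cell cannot be told apart.

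**Figure D1:**
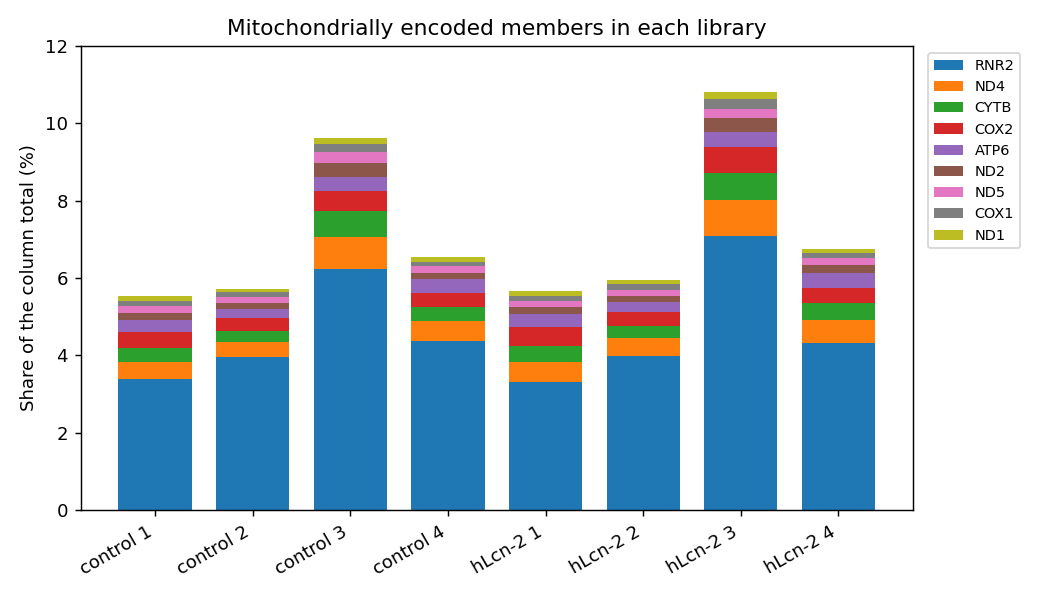
The stacked bars give, for each of the 8 libraries, the share of the column total (%) taken by each of the 9 mitochondrially encoded members. Both libraries numbered 3 are the tallest, with 9.62% and 10.8%, and the others lie between 5.53% and 6.76%.

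RNR2 alone took 3.39%, 3.95%, 6.22% and 4.37% in controls 1 to 4 and 3.31%, 3.99%, 7.10% and 4.32% after hLcn-2. By share it was higher after hLcn-2 in 2 of 4 pairs, and by normalized count, where the authors' scaling factors enter, in 4 of 4. The 8 mRNAs together took 2.14%, 1.77%, 3.40% and 2.16% in controls and 2.36%, 1.95%, 3.71% and 2.43% after hLcn-2, and were higher in 4 of 4 pairs. Among the mitochondrially encoded members, RNR2 made up 65.5% ± 3.31 (SD, n = 4) in controls and 63.8% ± 3.85 (SD, n = 4) with hLcn-2, and was lower after hLcn-2 in pairs 1, 2 and 4.

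In normalized counts without division by length, the order of mean levels over 8 libraries was RNR2 (45861), ND4 (5905), CYTB (4451), COX2 (4331), ATP6 (3328), ND2 (2234), ND5 (1899), COX1 (1554) and ND1 (1251). Whether the reads of each row lay at the 3′ end of its transcript was not tested, so this is an order of counts per row. CYTB and COX2 did not differ beyond their spread, with a mean log2 ratio of 0.0011 ± 0.24 (SD, n = 8) and CYTB higher in 4 of 8 libraries. ND2 and ND5 differed by 0.17 ± 0.22 (SD, n = 8) on the log2 scale, also within the spread, with ND2 higher in 7 of 8. Per kilobase of gene, RNR2 stayed first (29417), COX2 was next (6331), followed by ATP6 (4887), ND4 (4286), CYTB (3901), ND2 (2144), ND1 (1309), ND5 (1048) and COX1 (1008). The 2 lowest on that scale, ND5 and COX1, did not differ beyond their spread (mean log2 ratio 0.076 ± 0.25, SD, n = 8), and neither did ATP6 and ND4 (0.23 ± 0.27, SD, n = 8, ATP6 higher in 6 of 8).

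The main pattern among the mitochondrially encoded members was by replicate number. For 9 of the 10 members, both libraries numbered 3 lay above all of the other 6, and the exception was MTATP6P1, whose control 3 (135 normalized counts) lay under hLcn-2 library 1 (143). On the log2 scale, number 3 exceeded the mean of the other numbers by 0.39 for ATP6, the least, and by 1.10 for ND2, the most. The replicate number accounted for 87.0% to 98.2% of the variation of log2 values in the 9 mitochondrially encoded members, and the group for 0.578% to 11.1%. The medians were 66.6% and 6.15% over all 15593 genes tested, and 87.2% and 4.05% over the 79 of them with a mean of at least 1000, which include these members. COX2 was the only one of the 9 whose share by number lay below the latter median. Control 3 held 5799151 reads and hLcn-2 library 3 held 2088266. The shallowest library, control 4, held 1501563 reads and had a member share of 6.54%. Culture day, passage and RNA quality by number were not given in the labels, and neither their part nor that of depth was tested.

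Differences between the groups were tested by limma on log2(normalized count + 1) over 15593 genes that reached 1 CPM in 2 samples or more, with Benjamini-Hochberg adjustment. On this scale all 10 members had a positive log2 fold change, with a median of 0.14 against 0.00083 over all genes tested. The mitochondrially encoded members are cut from shared transcripts, and all 10 members were measured in the same libraries, so they are not independent of each other. Without the replicate number in the model, 0 of the members and 0.0% of all genes tested passed an adjusted p-value of 0.05, with 355 genes at an unadjusted p-value under 0.05, against 324 for the quasi-likelihood test of edgeR and 284 for DESeq2, which called 0 genes as well. These counts lay below the 780 genes that this threshold would give if no gene differed. Values of hLcn-2 libraries and controls overlapped for each of the 10 members, where 0.891% of all genes tested lay above the controls without overlap. In all 4 pairs 7 members were higher by normalized count (RNR2, ND1, ND4, COX2, ATP6, CYTB and MTATP6P1), against 9.93% of all genes tested. By share of the column total, 4 members were higher in all pairs (ND4, COX2, CYTB and MTATP6P1).

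Because same-numbered libraries deviated together from their group means, with correlations across genes from 0.31 to 0.61, a second fit took the replicate number as a block. Limma with the block called 1 member, MTATP6P1, and 0.282% of all genes tested, or 0.218% counting the higher ones only. On the recovered reads, edgeR with the block also called MTATP6P1 alone among the members, and 1.49% of all genes tested. At an unadjusted p-value under 0.05 in limma with the block, 4 members were higher (ND4, COX2, CYTB and MTATP6P1), against 6.65% of all genes tested.

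**Figure D2:**
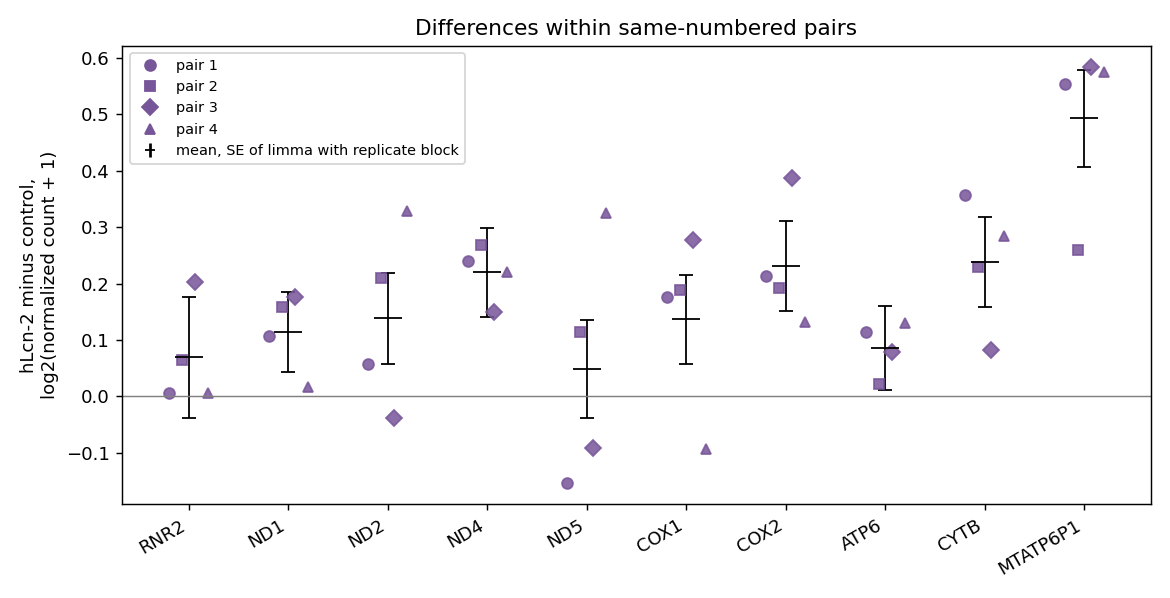
Each point is the difference of log2(normalized count + 1), hLcn-2 minus control, within 1 of the 4 same-numbered pairs, and the horizontal tick is the mean with the standard error of limma with the replicate block. MTATP6P1 lies highest, with pairs between 0.26 and 0.58, and points of ND2, ND5 and COX1 fall on both sides of 0.

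ND4 had 4382, 3716, 8618 and 5222 normalized counts in controls 1 to 4 and 5173, 4479, 9566 and 6087 after hLcn-2. The values rose and fell with the replicate number in both groups, and each hLcn-2 library lay above its own control, by 0.15 to 0.27 on the log2 scale. The log2 fold change was 0.22 (standard error 0.29 without the block and 0.078 with it). Its adjusted p-value with the block was 0.281 in limma and 0.0812 in edgeR.

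CYTB had 3373, 2716, 6824 and 3593 normalized counts in controls and 4320, 3183, 7227 and 4374 after hLcn-2, the pair differences being 0.36, 0.23, 0.083 and 0.28 on the log2 scale. Library 3 was highest in both groups, and number 3 was the pair with the smallest difference. The log2 fold change of CYTB was 0.24 (standard error 0.30 without the block and 0.080 with it), with an adjusted p-value with the block of 0.251 in limma and 0.0754 in edgeR.

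COX2 had 4154, 3075, 5146 and 3439 normalized counts in controls and 4816, 3514, 6731 and 3770 after hLcn-2. Here pair 3 had the largest difference, 0.39 on the log2 scale, and pair 4 the smallest, 0.13. The log2 fold change was 0.23 (standard error 0.23 without the block and 0.080 with it), with an adjusted p-value with the block of 0.260 in limma and 0.0908 in edgeR.

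The other mRNAs gave smaller or mixed differences. COX1, the partner of COX2 in the catalytic core of the oxidase, had pair differences from -0.093 to 0.28 on the log2 scale and was higher in 3 pairs. ND1 ranged from 0.017 to 0.18, ND2 from -0.039 to 0.33 and ND5 from -0.15 to 0.32, with ND5 higher in 2 of 4 pairs. RNR2 had 44410 ± 13429 (SD, n = 4) normalized counts in controls and 47312 ± 17724 (SD, n = 4) with hLcn-2, a log2 fold change of 0.070 (standard error 0.32 without the block and 0.11 with it). The adjusted p-values of these 5 genes with the block were between 0.530 and 0.868 in limma and between 0.389 and 0.833 in edgeR. Without the block the directions rested on single libraries: leaving out hLcn-2 library 3 gave log2 fold changes under 0 for RNR2 (-0.16), ND1 (-0.079), ND2 (-0.11), ND5 (-0.093), COX1 (-0.099) and ATP6 (-0.0097). Without that library the values of ND4 (0.00065), CYTB (0.017) and COX2 (0.043) also came close to 0, and that of MTATP6P1 was 0.31. These fits kept control 3, its partner. With the block and the whole of pair 3 left out, the values were positive for RNR2 (0.025), ND1 (0.094) and ND2 (0.20). They were also positive for ND5 (0.095), COX1 (0.091) and ATP6 (0.089). Leaving out pair 4 with the block turned ND5 (-0.044).

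**Figure D3:**
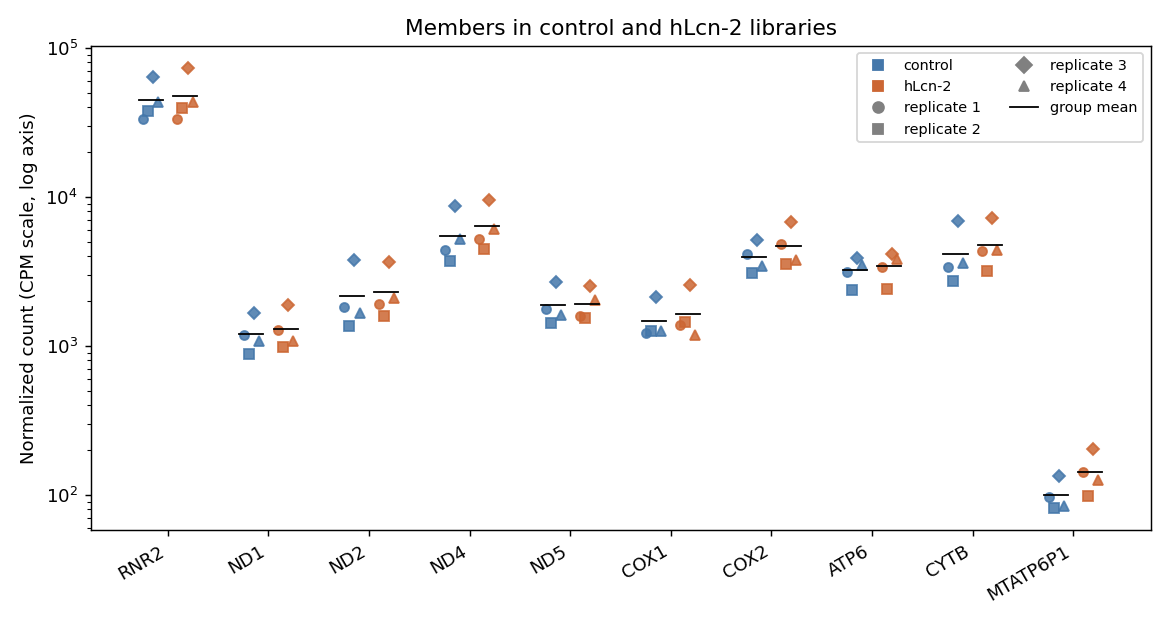
Normalized counts (log axis) of the 10 members in the 4 control and 4 hLcn-2 libraries, 1 marker shape per replicate number, with a line at the group mean. Diamonds, the libraries numbered 3, lie highest in each group, from 135 for MTATP6P1 in control 3 to 73185 for RNR2 in hLcn-2 library 3.

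MTATP6P1 had 96.8, 81.8, 135 and 83.6 normalized counts in controls 1 to 4 and 143, 98.2, 202 and 125 after hLcn-2. Each hLcn-2 library lay above its own control, but hLcn-2 libraries 2 and 4 lay under control 3, so the groups overlapped. These values came from 127 to 1601 reads per library. The means were 99.2 ± 24.5 (SD, n = 4) and 142 ± 44.2 (SD, n = 4), a fold of 1.43, and the pair differences were 0.55, 0.26, 0.58 and 0.57 on the log2 scale. The log2 fold change was 0.49 (standard error 0.22, unadjusted p = 0.0459 and adjusted p = 1.0 in limma without the block). The two-sided exact permutation test over the 70 regroupings gave p = 0.114, where the smallest p that 4 against 4 allows is 0.0286. With the replicate block the standard error was 0.086 and the adjusted p-value 0.0373 in limma and 0.00792 in edgeR. In limma with the block this call was lost whenever 1 pair was left out (adjusted p between 0.0591 and 0.176) and with columns scaled to equal totals of nuclear genes (adjusted p = 0.0547).

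ATP6 itself had 3127, 2366, 3891 and 3505 normalized counts in controls and 3387, 2401, 4109 and 3837 after hLcn-2. Its pair differences were 0.11, 0.021, 0.079 and 0.13 on the log2 scale, each below that of MTATP6P1 in the same pair. Its log2 fold change was 0.086 (standard error 0.21 without the block and 0.074 with it), and limma with the block gave an adjusted p-value of 0.694. The ratio of the copy to the gene does not depend on how columns are scaled. MTATP6P1 amounted to 3.10%, 3.46%, 3.46% and 2.39% of ATP6 in controls 1 to 4 and to 4.21%, 4.09%, 4.93% and 3.26% after hLcn-2. The ratio was higher after hLcn-2 in 4 of 4 pairs, but hLcn-2 library 4 lay below controls 2 and 3. The mean log2 difference of the ratio was 0.41, a fold of 1.33 (exact permutation test, two-sided, p = 0.0857). Within pairs the exact sign-flip test gave p = 0.125, the smallest that 4 pairs allow.

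The other copies of this nuclear insertion on chromosome 1, which run from MTND1P23 (starting at 629062) to MTCO3P12 (ending at 634922), were far lower. MTND1P23, MTND2P28, MTCO1P12 and MTCO2P12 amounted to at most 1.88%, 1.51%, 0.496% and 0.854% of their mitochondrial genes in any library, where MTATP6P1 was never under 2.39%. Relative to the mitochondrial gene, MTND1P23 and MTND2P28 were higher after hLcn-2 in 2 pairs and MTCO1P12 and MTCO2P12 in 3, and all of them were lower in pair 1. They rest on 9 to 233 reads per library. MTATP8P1, which ends inside MTATP6P1, had 3 to 57 reads, and MTCO3P12 0 to 11. Of the MTRNR2L genes, nuclear copies of RNR2 sequence, 7 were in the table. The highest was ENSG00000269028, under the symbol MTRNR2L2, with 269 ± 106 (SD, n = 4) normalized counts in controls and 258 ± 103 (SD, n = 4) with hLcn-2. Limma with the block gave these 13 copies adjusted p-values from 0.445 up, and edgeR with the block from 0.330 up.

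**Figure D4:**
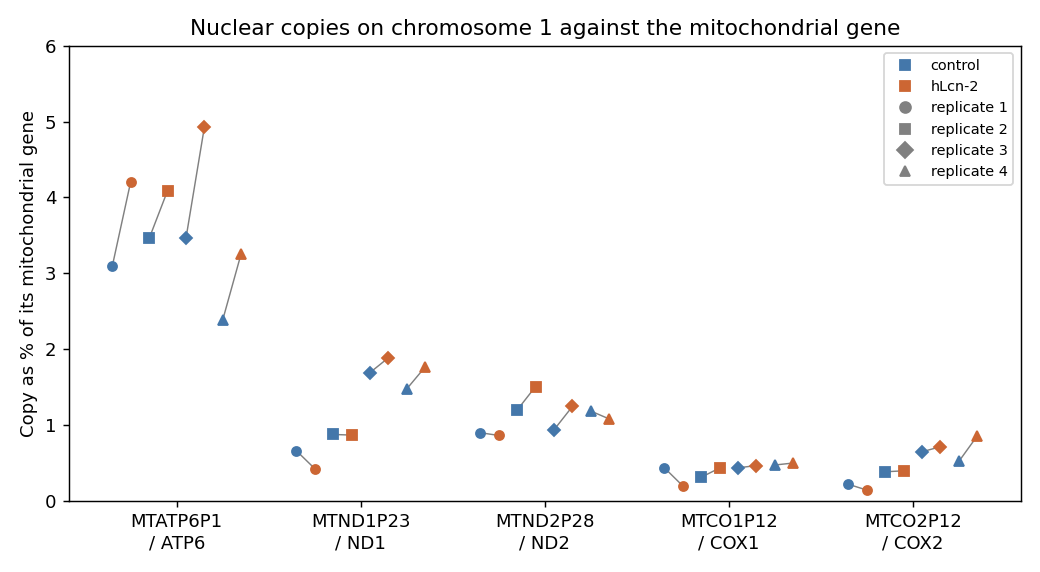
Each point is the normalized count of a nuclear copy on chromosome 1 as a percentage of its mitochondrial gene in 1 library, and lines join the control and hLcn-2 libraries of a pair. For MTATP6P1 all 4 lines go up, between 2.39% and 4.93%, and for the other 4 copies they go both ways and reach at most 1.88%.

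Of the other rows of the mitochondrial genome, COX3, which encodes a further subunit of the oxidase, had 7238 ± 2607 (SD, n = 4) normalized counts in controls and 7295 ± 2714 (SD, n = 4) with hLcn-2, a log2 fold change of 0.011. ND6, the protein-coding gene of the other strand, had one of 0.23 and was higher in 4 of 4 pairs, and ND4L had one of 0.17 and was also higher in 4. Because the strand setting of the counting is not given, the ND6 row may include reads from the plus strand at its position. ND3 (-0.012) and ATP8 (0.031) were close to 0. RNR1, the small ribosomal RNA, had 3839 ± 890 (SD, n = 4) and 3407 ± 589 (SD, n = 4), a log2 fold change of -0.16, and was higher in 2 of 4 pairs. The adjusted p-values of these 6 genes were between 0.350 and 0.974 with the block in limma.

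The nuclear genes that copy, transcribe and process the mitochondrial genome showed no call by limma with the block. Of 17 genes for copying and transcription, 10 had a positive and 7 a negative log2 fold change, with a median of 0.049. TFAM, which packs mitochondrial DNA and starts its transcription, had 150 ± 10.3 (SD, n = 4) normalized counts in controls and 162 ± 16.4 (SD, n = 4) with hLcn-2, and the RNA polymerase POLRMT had 8.79 ± 1.31 and 9.75 ± 1.08 (SD, n = 4). TEFM, an elongation factor of that polymerase, had 8.31 ± 1.98 and 5.50 ± 1.17 (SD, n = 4), was lower in each of the 4 pairs and did not overlap between groups, as 0.988% of all genes tested did in this direction. Its adjusted p-value with the block was 0.318 in limma and 0.236 in edgeR. POLG, the DNA polymerase of mitochondria, had a log2 fold change of -0.34.

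Of 31 genes for RNA processing, decay and translation in mitochondria, 18 were positive and 13 negative, with a median of 0.037. LRPPRC and SLIRP, which together stabilize the mRNAs, had log2 fold changes of 0.074 and 0.011, and the poly(A) polymerase MTPAP had one of 0.21 (adjusted p = 0.482 in limma with the block). TSFM and GFM1, elongation factors of mitochondrial translation, had log2 fold changes of 0.51 and 0.17 and were higher in 4 of 4 pairs, GFM1 without overlap, with adjusted p-values of 0.194 and 0.422 with the block.

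Of 9 regulators of mitochondrial biogenesis 8 were in the table, 3 positive and 5 negative, with a median of -0.064. GABPA, a subunit of an ETS family factor that activates nuclear genes for respiration, had 14.1, 16.4, 17.8 and 9.22 normalized counts in controls and 22.2, 22.5, 28.1 and 20.2 after hLcn-2. The groups did not overlap, as for 0.891% of all genes tested in this direction. Its pair differences were 0.43 to 1.05 on the log2 scale, from 14 to 249 reads per library. Its log2 fold change of 0.68 had an adjusted p-value with the block of 0.0655 in limma and 0.0193 in edgeR. It was the only call of edgeR with the block among these lists of 17, 31, 8 and 26 genes. That test called 1.49% of all genes tested. The growth regulator MYC had a log2 fold change of 0.53. Of 26 nuclear subunits of the same respiratory complexes, 11 were positive and 15 negative, with a median log2 fold change of -0.022, and none was called. Those of smallest p-value without the block were NDUFS7 of complex I (0.53) and COX7B of the oxidase (-0.18). NDUFS7 had only 1 to 30 reads per library, and its difference in pair 2 was -0.27.

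Among the 4228 genes with a mean of at least 50 normalized counts that are no members, IVD, ZBTB44, TSPAN6, FGF2 and CADPS2 followed the summed mRNAs of the members most closely over the 8 libraries, with Pearson correlations of 0.994, 0.988, 0.987, 0.984 and 0.983. As for the 9 mitochondrially encoded members, both libraries numbered 3 were the highest for each of these genes. Over the 6 libraries without number 3 the correlations were between 0.918 and 0.983. They are the highest of many and share libraries and scaling with the members. RNR2 gave 0.865 over 8 libraries and 0.078 over the 6, its lowest values being in number 1 and those of the mRNAs in number 2.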

How the data were processed

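RNA of CAKI1 cells, 4 control and 4 hLcn-2 libraries, was prepared with a 3′ kit and sequenced for 75 cycles. The authors used STAR for alignment to GRCh38, molecular identifiers for removing duplicates, HTSeq for counting and edgeR. The versions of STAR, HTSeq and edgeR and the strand setting are not given in the sources used here. The deposited values are a signal, CPM of an adjusted library size. All 134256 values were whole multiples of the worth of 1 read (tolerance 0.01 reads), from which reads were recovered. A decimal comma in 1 value was read as a point. Depth is given in reads, and 3 reads stood for 0.211 in the deepest and 1.98 in the shallowest library. Limma 3.58.1 (R 4.3.3) with an intensity trend, run on log2(value + 1), was the planned test; edgeR 4.0.16 (quasi-likelihood) and DESeq2 1.42.0 on the recovered reads were alternatives, with other pseudocounts, filters, scalings and left-out libraries. Models were tested on simulated data. Single genes were tested by exact permutation.

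Same-numbered controls and hLcn-2 libraries deviated together (correlations 0.48, 0.59, 0.61 and 0.31 across genes), so that the numbers were taken to pair them. GENCODE 44 gave positions and named 2645 of 2810 rows without symbol. Sequences are from GRCh38, with 24 nuclear chromosomes searched for copies. Named are all members, the other mitochondrial rows, nuclear copies, the 2 genes of smallest p without the block in each further list, TFAM, POLRMT, LRPPRC, SLIRP and MTPAP, and the 5 genes most like the members. Members and lists were chosen with earlier results of these data known.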

Additional observations from a re-analysis of the deposited data

Results flagged for a closer look

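Of 24 groups of 4 libraries examined for the members, their summed share and the ratio of MTATP6P1 to ATP6, 1 held a library that stood apart, and chance alone gives 1.2 such groups. COX1 in control 3 had 2117 normalized counts, and its distance to the nearest control was 0.951 of the range of the controls. In the hLcn-2 group the library numbered 3 was the highest for COX1 as well, with 2565.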

How the results depend on the processing

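Without the replicate block, 0 genes and 0 members passed the threshold under any filter, pseudocount, scaling or tool run, nor with any single library left out. With the block, limma called 44 genes and 1 member (no other member changed its call), edgeR 233 genes and 1 member, and limma on columns scaled to equal totals of nuclear genes 37 genes and 0 members. With the block and each pair left out in turn, between 0 and 58 genes were called (14, 3, 0 and 58 without pairs 1 to 4), and 0 members. The log2 fold change of MTATP6P1 was 0.49 in limma and 0.50 in edgeR with the block, where it passed the threshold, and 0.31 to 0.65 with libraries left out. With all libraries each member kept a positive log2 fold change under every setting run. With libraries left out the ranges were -0.16 to 0.26 for RNR2, -0.079 to 0.29 for ND1, -0.11 to 0.44 for ND2, -0.093 to 0.24 for ND5, -0.099 to 0.33 for COX1 and -0.054 to 0.25 for ATP6, and 0.00065 to 0.46 for ND4, 0.017 to 0.51 for CYTB and 0.043 to 0.37 for COX2, the lowest of these 3 each without hLcn-2 library 3 and the highest without control 3. Other than hLcn-2 library 3, control 2 turned ND1 (-0.023), ND2 (-0.042), ND5 (-0.068) and ATP6 (-0.054), control 1 turned RNR2 (-0.053), and control 4 turned ND5 (-0.011), as did pair 4 with the block (-0.044). The log2 ratio of MTATP6P1 to ATP6 differed by 0.29 to 0.52 with libraries left out, with the upper value, without hLcn-2 library 4, at an exact permutation p of 0.0286. The difference in summed share ranged from -0.729 to 1.37 percentage points. The cause of these shifts was not tested. Depth limits the low copies, since MTCO3P12 had 0 reads in a library and MTATP8P1 as few as 3.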
